A study of Mus musculus with 8 samples.

Results

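The interleukin 1 family and its receptors were followed in gallbladder RNA of leptin-deficient mice after leptin or saline. The group was named as 10 genes, and every probe set whose single annotated mouse symbol was one of them was taken. That gave 16 probe sets for 9 genes, of 45101 probe sets and 18193 genes with a probe set of 1 symbol. Il1rl1, the receptor of interleukin 33, was not analysed here. All mice were females of strain B6.V-Lep ob, which carry the obese mutation of the leptin gene, so saline and leptin mice alike made no functional leptin of their own. They came at 7 weeks of age, had 1 week on chow and were then injected into the peritoneum daily for 4 weeks, 12 with recombinant mouse leptin at 5 µg per g body weight and 12 with saline. At 12 weeks of age, after a night without food, gallbladders were removed, and RNA of 3 gallbladders was pooled, which gave 4 saline pools (numbered 1 to 4) and 4 leptin pools (5 to 8) on 1 Affymetrix mouse expression array each. Lean mice, mice fed the amount that leptin-treated mice eat and separated cell types are not part of these groups, so body weight and food intake cannot be told apart from leptin itself.

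Interleukin 1 alpha and beta are inflammatory cytokines that bind the receptor encoded by Il1r1, which then recruits the accessory chain encoded by Il1rap and signals through MYD88 and NF-kappaB. The pathway has built-in brakes: Il1rn encodes an antagonist that occupies the receptor without signalling, Il1r2 a decoy receptor with no signalling domain, and Il18bp a secreted protein that captures interleukin 18. Interleukins 1 beta and 18 are made as inactive precursors that caspase 1 cuts in the inflammasome, whereas interleukin 33 is stored in nuclei and released from damaged barrier cells. In epithelial organs myeloid cells are the usual source of interleukin 1 beta, and epithelium a usual source of interleukin 18.

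Values are MAS 5.0 signals, linear brightness values that have no unit, and all folds are leptin against saline. A gene was read from its brightest probe set, and a probe set was tested where its mean log2 value lay in the upper part of the array, at or above the median. Here "called" means a limma adjusted p below 0.05 over all 22519 probe sets tested. As background, 8.27% of all 11719 genes tested were called, 4.29% higher and 3.98% lower with leptin. Of the probe sets tested 6.93% were called, 3.54% higher and 3.39% lower. A signal under 46.0, the level that bounds most control probes for sequences not in the samples, is treated as not above background. In the tested probe sets the leptin 7 pool stood apart, with a score of 49.1 on the second principal component (16.4% of the variance) against -23.7 to 12.6 in the other pools. The ratio of 3' to 5' actin signal, which rises as RNA degrades, was 1.674 to 2.172 in leptin pools and 1.498 to 1.683 in saline pools. Of the leptin pools only leptin 7, at 1.674, lay within the saline range. Fits with this ratio as a covariate therefore cannot cleanly separate it from treatment.

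The agonist Il1b and its antagonist Il1rn were both higher with leptin, by 2.50-fold and 2.97-fold. They were 2 of the 6 members tested (33.3%, against 8.27% of all tested genes), and 0 members were called lower. The same 2 were the tested members whose pools did not overlap between treatments, both higher; over all tested genes 8.45% did not overlap and were higher and 8.58% lower. Of the 16 probe sets 11 were tested and 4 called, 1 of which passed the filter only through its leptin pools. The other 4, Il18, Il33, Il1r1 and Il1rap, were not called, and Il1a, Il18bp and Il1r2 were too dim to be tested. The median log2 fold change of the 6 tested members was 0.36, against 0.020 for all tested genes.

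**Figure D1:**
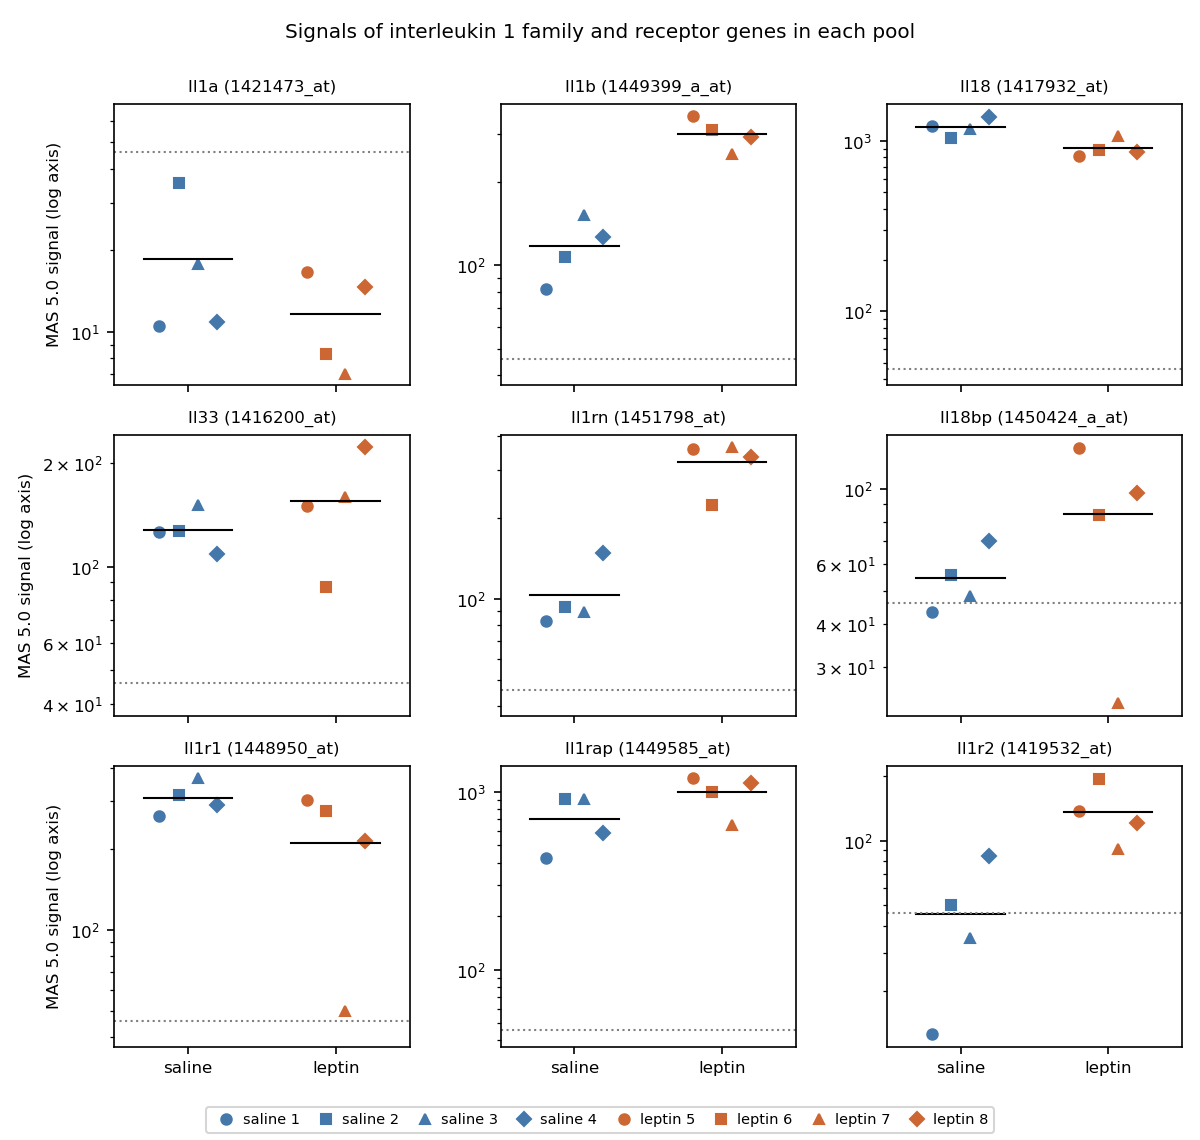
MAS 5.0 signal (vertical log axis, no unit) of the brightest probe set of each of 9 genes in every saline pool (blue) and leptin pool (orange); the black line is the mean of 4 pools and the dotted line the background of 46.0. The leptin pools of Il1b, Il1rn and Il1r2 all lie above the saline pools, every pool of Il1a lies under background, and leptin 7 is the lowest pool of Il1r1 and Il18bp.

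Il1b had signals of 82.3, 107, 152 and 127 in saline pools 1 to 4 and of 346, 308, 253 and 292 in leptin pools 5 to 8. Every leptin pool lay above every saline pool, and the lowest leptin pool, leptin 7, was still well above saline 3, the highest saline pool. The log2 fold change was 1.32 ± 0.20 (SE, n = 4 pools in each treatment; limma adjusted p = 0.00178). The pools spread less around their mean with leptin than with saline, with a coefficient of variation of 12.9% against 25.1%. With the actin ratio as a covariate the log2 fold change of Il1b was 0.95 and the call was lost (limma adjusted p = 0.0911). Summed signals of macrophage and monocyte markers (4090 to 5682 with saline, 9745 to 11396 with leptin) and of neutrophil markers (521 to 761 and 2349 to 4175) also did not overlap between treatments. The part of these cells in the values of Il1b, Il1rn and Il1r2 was not tested.

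Il1rn, the receptor antagonist, gave the same picture on 3 probe sets. Its brightest, 1451798_at, read 83.0, 93.1, 89.7 and 148 in saline pools 1 to 4 and 360, 222, 365 and 337 in leptin pools 5 to 8, with no overlap between treatments. Its log2 fold change was 1.57 ± 0.22 (SE; limma adjusted p = 0.00111). Saline 4 was the highest saline pool on all 3 probe sets of the gene. On 1423017_a_at the saline pools lay between 49.6 and 141 and the leptin pools between 262 and 382, a log2 fold change of 1.96 ± 0.27 (limma adjusted p = 9.3e-04). Its saline pools averaged below the brightness filter (6.37 against 6.52 on the log2 scale), so it was tested only through its leptin pools and adds no independent count. In the fit without the filter its limma adjusted p was 0.00242. On 1425663_at leptin 6, at 148, fell below saline 4, at 157, so the treatments overlapped. That probe set had a log2 fold change of 1.24 ± 0.35 (limma adjusted p = 0.0484), with saline 1 under background, and was not called without the brightness filter (limma adjusted p = 0.0924). The annotation does not say which of the gene's transcripts, secreted or intracellular, each probe set reads.

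Because Il1b and Il1rn were both called higher with leptin, the sequence before their start sites is shown, with that of the decoy receptor Il1r2, whose pools did not overlap either. Each line gives 250 bases upstream of an annotated start (RefSeq, GRCm38.p6), 5' to 3' on the gene's strand. Capitals mark matches, on either strand, to any of 5 short motifs. They are a kappaB-like motif of 3 G, any 5 bases and 2 C, the STAT-like TTCNNNGAA, the C/EBP-like TTNNGNAA, the AP-1-like TGANTCA and the TATA box TATAAA, where N is any base.

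Il1b (chr2:129371140-129371389, minus strand): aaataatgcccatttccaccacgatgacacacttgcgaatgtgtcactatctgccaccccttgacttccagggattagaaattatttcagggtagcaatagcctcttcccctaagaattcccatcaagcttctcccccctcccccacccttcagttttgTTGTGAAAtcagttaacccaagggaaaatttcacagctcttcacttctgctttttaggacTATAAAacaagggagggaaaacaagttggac

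Il1rn, upstream start (chr2:24336610-24336859, plus strand): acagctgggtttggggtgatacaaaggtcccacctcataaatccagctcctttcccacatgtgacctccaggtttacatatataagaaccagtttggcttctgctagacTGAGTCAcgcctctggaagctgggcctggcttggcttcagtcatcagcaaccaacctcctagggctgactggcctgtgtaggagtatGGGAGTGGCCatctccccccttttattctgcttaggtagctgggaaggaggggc

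Il1rn, downstream start (chr2:24345041-24345290, plus strand): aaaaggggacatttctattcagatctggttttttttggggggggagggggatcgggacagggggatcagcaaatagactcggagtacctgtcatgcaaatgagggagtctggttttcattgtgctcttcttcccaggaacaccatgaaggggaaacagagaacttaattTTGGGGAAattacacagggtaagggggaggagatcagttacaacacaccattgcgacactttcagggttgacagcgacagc

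Il1r2 (chr1:40085843-40086092, plus strand): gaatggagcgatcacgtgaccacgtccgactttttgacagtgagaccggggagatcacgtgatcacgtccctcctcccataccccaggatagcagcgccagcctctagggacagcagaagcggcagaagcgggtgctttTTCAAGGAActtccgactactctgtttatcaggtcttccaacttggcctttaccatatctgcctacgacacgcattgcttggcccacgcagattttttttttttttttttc

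Il1b held a TATA box from -31 to -26 relative to its start and a C/EBP-like match from -91 to -84. The upstream start of Il1rn held an AP-1-like match from -141 to -135 and a kappaB-like match from -54 to -45, and the downstream start held a C/EBP-like match from -81 to -74. A further start of Il1rn, whose window overlaps that of the downstream one and is not printed, held a kappaB-like match from -51 to -42 and C/EBP-like matches from -161 to -154, -65 to -58 and -64 to -57, the last pair overlapping. Of these, the match from -161 to -154 covers the same bases as that from -81 to -74 of the downstream start. Il1r2 held a STAT-like match from -111 to -103. No motif was found in all 4 printed windows. Of 32851 promoter windows of the same length, 45.8% held the kappaB-like letters, 7.0% the STAT-like, 36.8% the C/EBP-like, 6.7% the AP-1-like and 12.4% the TATA box. In none of the printed windows did matches of different motifs overlap. All 10 named genes had an entry in that table.

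Whether the antagonist changed more than the agonist was asked within each pool, as the log2 value of Il1rn minus that of Il1b. Such a difference compares changes, not levels, since brightness of different probe sets cannot be set against each other. It was 0.080 ± 0.40 (SD, n = 4) with leptin and -0.17 ± 0.39 (SD, n = 4) with saline. The shift of 0.25 was within the spread of the pools (two-sided exact permutation p = 0.371, adjusted 0.371 over 3 such differences). The smallest p this test can give is 0.0286.

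The remaining cytokines did not pass. Il18 had high signals in every pool: 1223, 1036, 1183 and 1384 in saline pools 1 to 4 and 816, 883, 1069 and 860 in leptin pools 5 to 8. Of the 4 leptin pools, 3 lay below all saline pools, while leptin 7 lay above saline 2. The log2 fold change of Il18 was -0.41 ± 0.13 (SE; limma adjusted p = 0.0722), with a 95% interval from -0.68 to -0.14. The call appeared without leptin 7 (log2 fold change -0.49, limma adjusted p = 0.0383) and with arrays centred on their medians (-0.66, limma adjusted p = 0.00600). Median centring moved the median of all tested probe sets to -0.21. With the actin covariate the log2 fold change of Il18 was -0.16. Of 9 gallbladder epithelium markers, all tested, 3 were lower with leptin, all of them keratins. They included Krt7 (-0.96 ± 0.16, limma adjusted p = 0.00408) and Krt8 (-0.58 ± 0.10, limma adjusted p = 0.00510). Krt18 was the third (-0.35 ± 0.089, limma adjusted p = 0.0350), a call lost without the filter (0.127). A further keratin, Krt19, was at -0.40 ± 0.11 and not called (limma adjusted p = 0.0506), though its pools did not overlap between treatments. Krt18 and Krt19 were named after their values were seen. The markers other than keratins were not called (limma adjusted p from 0.401 to 0.982), and were named after their values were seen. Epcam was at -0.0062 ± 0.12, Cdh1 at -0.17 ± 0.12 and Sox17 at -0.069 ± 0.10. Cldn4 was at -0.25 ± 0.35 and Muc1 at 0.028 ± 0.10. The summed signal of all 9 markers was 40589 to 50333 in saline pools and 34216 to 38340 in leptin pools, and its part in the value of Il18 was not tested. Of these epithelial markers 5 were called lower with median centring and 0 with the actin covariate. In such whole-organ RNA, fewer cells of a type and less RNA per cell cannot be told apart.

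Il33, the nuclear alarmin, read 126, 127, 151 and 109 in saline pools 1 to 4 and 150, 87.5, 159 and 223 in leptin pools 5 to 8. Leptin 6 was the lowest and leptin 8 the highest of all pools, so the saline pools lay inside the range of the leptin pools. Its log2 fold change was 0.20 ± 0.25 (SE; limma adjusted p = 0.682), with a 95% interval from -0.35 to 0.75, and quantile scaling gave -0.0044. Il1a, the other agonist of the type I receptor, was under background in all 8 pools, at 10.5 to 35.4 with saline and 7.00 to 16.6 with leptin, so no fold is given.

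Il18bp, the soluble trap of interleukin 18, was dim. It read 43.4, 55.9, 48.5 and 70.2 in saline pools 1 to 4 and 132, 84.0, 23.4 and 97.3 in leptin pools 5 to 8. Leptin 5, 6 and 8 were above every saline pool, and leptin 7 was the lowest pool of all and under background, as was saline 1. In the fit without the brightness filter the log2 fold change was 0.39 ± 0.45 (limma adjusted p = 0.720), and 0.84 without leptin 7 (limma adjusted p = 0.242). The within-pool difference of Il18bp and Il18 shifted by 0.80 between treatments (two-sided exact permutation p = 0.171, adjusted 0.257), and by 0.97 with signals under background set at that level (p = 0.0857 by the same exact test, adjusted 0.129).

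**Figure D2:**
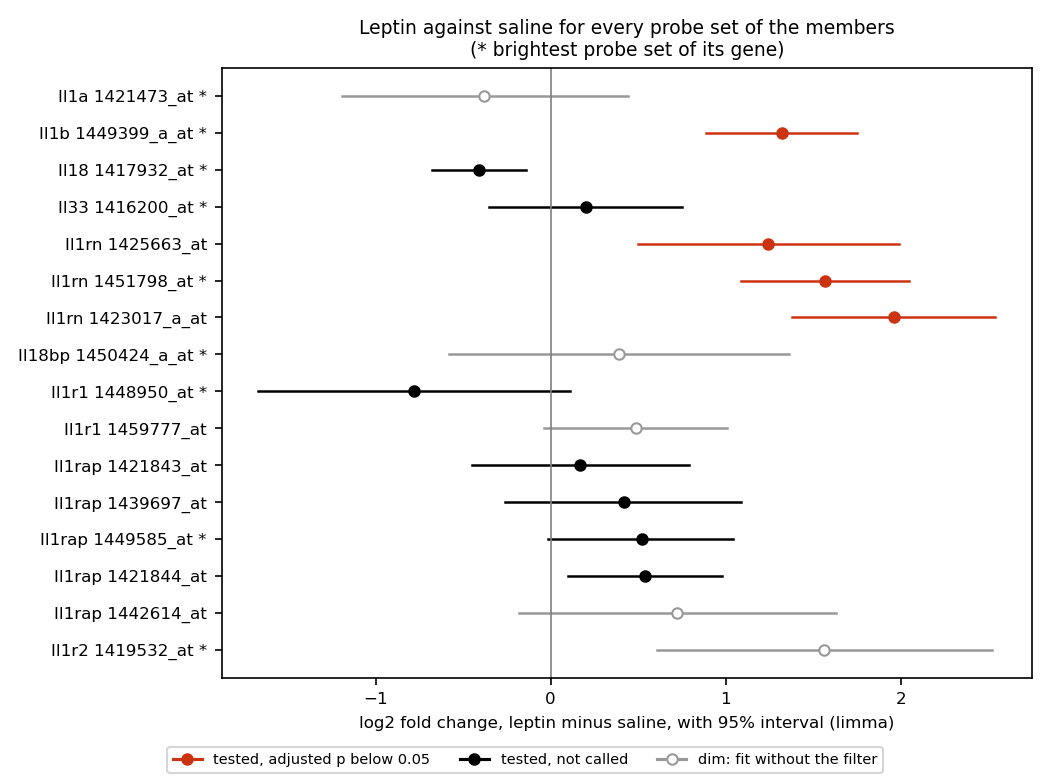
Log2 fold change, leptin minus saline (horizontal axis), with the 95% interval from limma for each of the 16 probe sets; red points were called, black points were tested and not called, and open grey points are dim probe sets read from the fit without the brightness filter. The called probe sets are that of Il1b and all 3 of Il1rn, while the 5 of Il1rap lie between 0.17 and 0.72 and none of them was called.

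None of the receptor genes analysed was called, and their fitted log2 fold changes differed in sign. Il1r1, the signalling receptor, read 264, 317, 366 and 291 in saline pools 1 to 4 and 302, 277, 49.9 and 214 in leptin pools 5 to 8. Leptin 5 and 6 lay within the saline range, leptin 8 somewhat below it, and leptin 7 near background. The log2 fold change was -0.78 ± 0.41 (SE; limma adjusted p = 0.277), with a 95% interval from -1.67 to 0.11, and without leptin 7 it was -0.23 (limma adjusted p = 0.484). With the actin covariate it was -1.99 and called (limma adjusted p = 0.0288). Leptin 7, the lowest pool of Il1r1, was also the only leptin pool with an actin ratio in the saline range. The covariate fit was not run without it. The other probe set of Il1r1, 1459777_at, was under background in all pools, at 11.7 or less.

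Il1rap, the shared co-receptor chain, read 427, 915, 907 and 585 in saline pools 1 to 4 and 1192, 1003, 654 and 1124 in leptin pools 5 to 8. Leptin 5, 6 and 8 were above all saline pools, and leptin 7 lay among them. The log2 fold change was 0.52 ± 0.24 (SE; limma adjusted p = 0.226), with a 95% interval from -0.014 to 1.04, and the sign turned with the actin covariate (-0.22). Of its 4 other probe sets, 3 were tested, with log2 fold changes of 0.54, 0.42 and 0.17, and none was called (limma adjusted p from 0.133 to 0.768). The 1442614_at probe set was under background in every pool.

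Il1r2, the decoy receptor, read 12.6, 49.9, 35.3 and 84.9 in saline pools 1 to 4 and 137, 194, 91.7 and 120 in leptin pools 5 to 8. No leptin pool overlapped the saline pools, although leptin 7 was only slightly above saline 4, and saline 1 and 3 were under background. Its mean brightness kept it below the filter. With the pools under background set at 46.0 it was 2.39-fold higher with leptin, a value that rests on 2 saline pools and is not a lower limit. The fit without the filter gave a log2 fold change of 1.56 ± 0.44 (95% interval from 0.61 to 2.52), which did not pass (limma adjusted p = 0.0886). In that fit 2.63% of 45037 probe sets were called, 1.42% higher and 1.21% lower. Leaving out 1 pool moved this value between 1.17 and 1.89, with limma adjusted p between 0.0592 and 0.208.

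The decoy and the signalling receptor were compared within each pool. There the log2 value of Il1r2 minus that of Il1r1 was -3.71, -2.48, -3.11 and -1.69 in saline pools 1 to 4 and -1.10, -0.49, 0.78 and -0.79 in leptin pools 5 to 8. All leptin pools lay above all saline pools, with leptin 7 highest. The shift was 2.34 on the log2 scale (two-sided exact permutation p = 0.0286, the smallest the design allows, adjusted 0.0857 over 3 differences), so it did not pass after adjustment, and it was 1.95 without leptin 7. Saline 1 and 3 enter with Il1r2 under background, so their values are not measured levels. With signals under background set at 46.0, an alternative chosen after seeing the data, saline 1 and 3 were at -2.33 and -2.79 and the shift was 1.92 (two-sided exact permutation p = 0.0286, adjusted 0.0857).

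**Figure D3:**
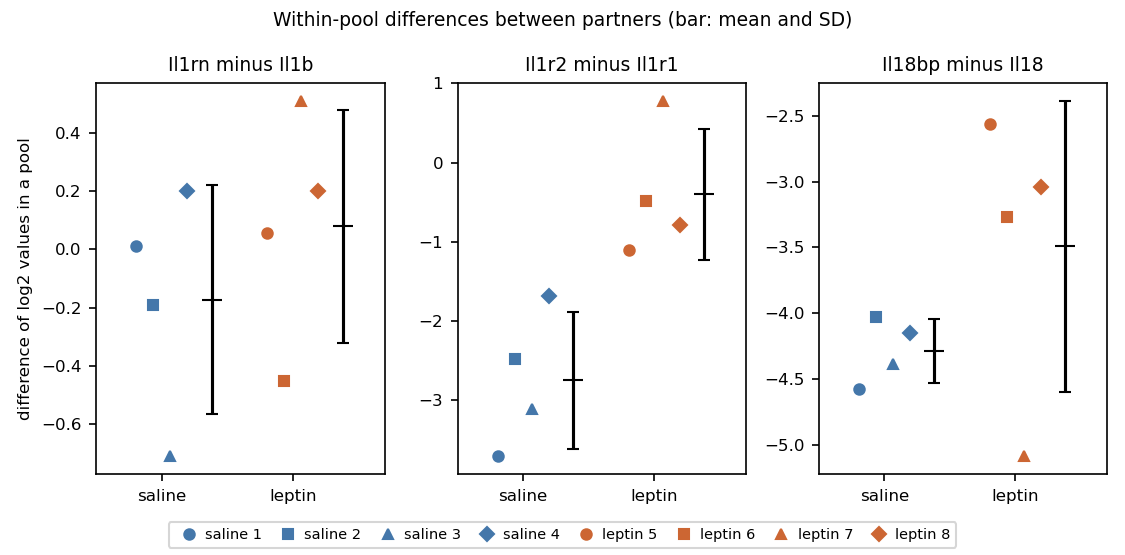
Difference between the log2 values of 2 partner genes in the same pool (vertical axis) for saline pools (blue) and leptin pools (orange), with the mean and SD of 4 pools as a black bar. Treatments overlap for Il1rn minus Il1b and for Il18bp minus Il18, and do not overlap for Il1r2 minus Il1r1, where the means are -2.75 with saline and -0.40 with leptin and Il1r2 is under background in saline 1 and 3.

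Some of the members lie in gene clusters, while Il18, Il18bp, Il33 and Il1rap have no other member beside them. In the mouse gene table Il1a and Il1b are neighbours on chromosome 2, which also holds Il1rn beside Il1f10, and Il1r2 and Il1r1 are neighbours on chromosome 1, followed by Il1rl2, Il1rl1, Il18r1 and Il18rap. Il1a was under background while its neighbour Il1b was called. The fitted log2 fold changes of Il1r2 and Il1r1 were 1.56 and -0.78, and neither was called. Il18r1, the ligand-binding chain of the interleukin 18 receptor, read 32.4 to 173 with saline and 126 to 238 with leptin. It was at 1.23 ± 0.38 (SE, limma adjusted p = 0.0744) and was named after its values were seen. Its saline pools averaged below the filter (6.29 on the log2 scale), with 1 of them under background. Without the filter its limma adjusted p was 0.139.

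Counts in the wider pathway were read from lists of 78 genes. Of 5 further ligands and antagonists 3 were tested, and of 6 further receptors 2, with 0 called in either (medians 0.47 and 0.68). The receptor median is that of 2 genes, Il18r1 (1.23) and Sigirr (0.13), the latter named after its value was seen. Of these Il18r1 passed the filter only through its leptin pools. Il1f6 and Il1f9, agonists of the interleukin 36 group picked with their values known, were at 0.61 ± 0.24 and 0.47 ± 0.26 (limma adjusted p = 0.151 and 0.296). Array weights, or leaving out saline 3, brought 1 further receptor past the threshold.

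Of 17 genes of maturation and release 9 were tested and 1 was called. It was P2rx7, an ATP-gated channel that triggers release of interleukin 1 beta, with signals of 63.8 to 79.9 in saline pools and 120 to 201 in leptin pools. Its log2 fold change was 0.99 ± 0.23 (SE; limma adjusted p = 0.0221), and its saline pools averaged below the filter (6.33 on the log2 scale). The call was lost under 6 of 18 alternatives: without the filter (limma adjusted p = 0.0564), with quantile or loess scaling (0.0624 and 0.0592), with the actin covariate (0.0613) and without leptin 6 (0.0600) or leptin 7 (0.0508). Casp1, the converting enzyme, was too dim to be tested, and its sensor Nlrp3 was at 0.66 ± 0.29 (limma adjusted p = 0.192). Both were named after their values were seen.

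Of 26 signalling genes 22 were tested, 2 were called higher and 0 lower, a share near the background, and the median was 0.036. Nfkbiz, a nuclear inhibitor-like cofactor of NF-kappaB induced by interleukin 1, read 303 to 461 with saline and 776 to 935 with leptin (1.15 ± 0.15, limma adjusted p = 5.3e-04). Nfkbia, which holds NF-kappaB in the cytoplasm and is itself an NF-kappaB target, read 3965 to 4263 with saline and 5217 to 5691 with leptin (0.41 ± 0.084, limma adjusted p = 0.0112). The Nfkbia call was lost under 3 of 19 alternatives, at limma adjusted p of 0.274 with arrays centred on their medians, 0.0642 with no trend fitted and 0.0939 with the actin covariate. With median centring the list had 1 gene higher and 4 lower, and without leptin 6 it had 3 higher. The adaptor Myd88, named after its value was seen, was at 0.21 ± 0.11 (limma adjusted p = 0.300).

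Of 24 genes known to respond to this family 12 were tested, with 5 called higher and 0 lower and a median of 0.48. Some of the 12, Cxcl5, Zc3h12a and Mmp9 among them, passed the filter only through their leptin pools. The count and the median rest partly on such genes. Cxcl5, a neutrophil-attracting chemokine, was under background in 3 saline pools and at 783 to 2112 in leptin pools. With signals under background set at 46.0 it was 29.7-fold higher with leptin. The fit gave a log2 fold change of 5.73 ± 0.55 (limma adjusted p = 4.8e-05). The saline pools of Cxcl5 averaged below the filter (4.93 on the log2 scale), and without the filter its limma adjusted p was 1.2e-04. Saa3, a serum amyloid, rose by 2.68 ± 0.24 and Lcn2, a siderophore-binding protein, by 1.57 ± 0.20 (limma adjusted p = 3.2e-05 and 5.3e-04). Zc3h12a, a ribonuclease that degrades inflammatory transcripts, rose by 1.19 ± 0.26 (limma adjusted p = 0.0162), with saline pools averaging below the filter (6.14 on the log2 scale). That call was lost under 4 of 18 alternatives, with quantile or loess scaling (0.0565 and 0.0538), with the actin covariate (0.0825) and without leptin 6 (0.0562). The fifth was Vcam1 (0.53 ± 0.15, limma adjusted p = 0.0480), a call lost under 10 of 19 alternatives, among them leaving out saline 2, 3 or 4 or leptin 5, 6 or 7 (0.0807 to 0.117). Other targets near the threshold were not called. Mmp9, a matrix protease, was at 0.91 ± 0.27 (limma adjusted p = 0.0587; 56.2 to 96.1 with saline, 110 to 222 with leptin). Cxcl1 was at -0.49 ± 0.15 (limma adjusted p = 0.0593) and Ptgs2 at -0.80 ± 0.25 (0.0766), all 3 named after their values were seen, and Il6 was too dim to be tested. The list had 1 gene lower under quantile and loess scaling and at the stricter brightness filter, and 2 with median centring, with array weights or without leptin 7. It had 3 higher with the actin covariate, at the stricter filter or without leptin 6.

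**Figure D4:**
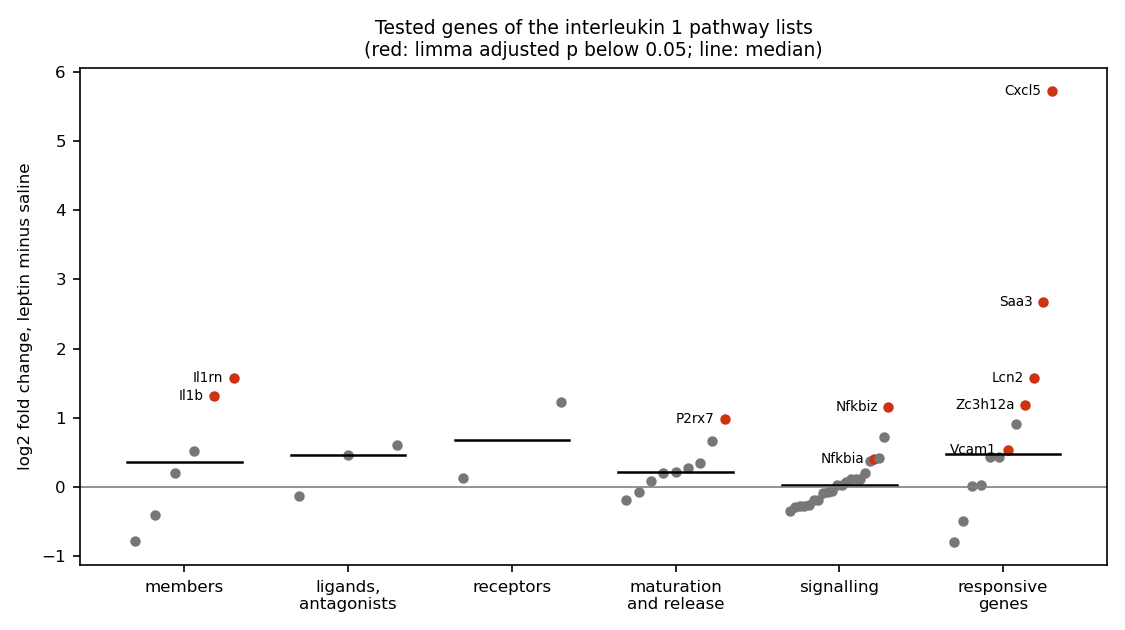
Log2 fold change, leptin minus saline (vertical axis), of each tested gene among the members and in 5 pathway lists (horizontal axis); red points with names were called, grey points were not, and lines are medians. Called genes are all above 0, and most signalling genes lie near 0.

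Markers of immune cells moved too. Of 12 macrophage and monocyte markers, all tested, 9 rose, among them Tyrobp (1.89 ± 0.13) and Laptm5 (1.82 ± 0.15), with limma adjusted p of 3.1e-06 and 1.6e-05. The saline pools of Itgam, another of the 9 and named after its values were seen, averaged below the filter (6.13 on the log2 scale). The summed signal of these 12 markers is given beside Il1b. With the actin covariate 4 were called. Of 10 neutrophil markers 8 were on the array and 5 tested, and 3 rose, among them S100a8 (3.07 ± 0.20) and S100a9 (2.87 ± 0.24), with limma adjusted p of 1.9e-06 and 1.7e-05. Ngp, at 7.8e-04 ± 0.22, and Mmp8, at 0.48 ± 0.27, were tested and not called (limma adjusted p = 0.999 and 0.314). Both were named after their values were seen. In leptin pools S100a8 and S100a9 had the highest mean signals of the list, 1234 and 1032, and so lead its sum. The sum of the neutrophil markers was the lowest of the leptin pools in leptin 7, at 2349, and the neutrophil markers Camp and Cxcr2 were under background in every pool.

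Other lists differed less evenly. Of 9 mast cell markers 5 were tested and 3 rose, Kit at 0.82 ± 0.19 (limma adjusted p = 0.0250) and Cpa3 at 0.66 ± 0.16 (0.0299) among them. The 3 fell to 0 under quantile or loess scaling, median centring, either filter alternative or the actin covariate and without saline 1, saline 4, leptin 5 or leptin 8, and to 1 without saline 2, leptin 6 or leptin 7. Their sum was 705 to 880 with saline and 1033 to 1474 with leptin, with Hdc under background throughout. Of 12 T, NK and innate lymphoid markers 5 were tested and 1 rose, Il7r (1.10 ± 0.25, limma adjusted p = 0.0220). Its saline pools averaged below the filter (6.11 on the log2 scale). The call was lost under 6 of 18 alternatives: quantile or loess scaling (limma adjusted p = 0.0569 and 0.0554), no filter (0.0562), the actin covariate (0.195) and leaving out saline 4 (0.0575) or leptin 5 (0.0534). The count was 2 without leptin 8. The sum of these lymphoid markers was 1095 to 1525 with saline and 1474 to 1812 with leptin, with Gata3 under background throughout. All 4 tested of 7 B and plasma cell markers rose, with sums of 378 to 485 with saline and 12719 to 20633 with leptin, led by Ighm and Jchain (6.76 ± 0.33 and 5.77 ± 0.28, both limma adjusted p = 8.2e-08). The saline pools of Jchain averaged below the filter (6.07 on the log2 scale), and without the filter its limma adjusted p was 2.2e-07.

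Among structural cells, 0 of 5 smooth muscle, 0 of 6 fibroblast and 0 of 5 tested endothelial markers were called. Leaving out saline 1 or leptin 7, or array weights, brought 2 smooth muscle markers past the threshold, lower with leptin, median centring brought 3, and quantile or loess scaling brought 1 fibroblast marker past it, higher. Of 5 tested adipocyte markers 2 were lower, Cidec (-2.03 ± 0.26, limma adjusted p = 5.2e-04) and Cidea (-2.41 ± 0.41, limma adjusted p = 0.00435). The leptin pools of Cidea averaged below the filter (6.27 on the log2 scale), and without the filter its limma adjusted p was 0.00922. Adipoq (-0.27 ± 0.51), Retn (-0.44 ± 0.30) and Lep (-1.94 ± 0.57) were not called (limma adjusted p = 0.793, 0.409 and 0.0605). These were named after their values were seen, and the leptin pools of Lep averaged below the filter (5.69). Sums of the adipocyte markers overlapped, at 1191 to 4731 with saline and 999 to 1878 with leptin. Hepatocyte markers gave high sums, 50905 to 79156 with saline and 65666 to 73558 with leptin, with 1 of 5 called, Apoa1 (0.70 ± 0.17, limma adjusted p = 0.0268). That call was lost under 9 of 19 alternatives. With the actin covariate Apoa1 was at 0.22 (limma adjusted p = 0.549), with median centring, no filter or no trend its adjusted p was 0.0774, 0.0755 and 0.0820, and without saline 1, saline 4, leptin 5, leptin 6 or leptin 8 it was 0.0564 to 0.0788, and without saline 1 another hepatocyte marker was called lower.

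Leptin 7 was the lowest leptin pool for 6 of the 9 members read from their brightest probe set, Il1a, Il1b, Il18bp, Il1r1, Il1r2 and Il1rap. Of the 6 tested members it was the lowest leptin pool for 3. Over all tested genes it was the lowest leptin pool in 31.2% and the highest in 28.2%. The genes whose deviations from the treatment means ran most like those of Il1b over the 8 pools were Paip2b (Pearson r = 0.997), Rnf5 (0.986) and Pgam1 (0.984), and for Il1rn they were Hsbp1 (0.961), Polr2i (0.955) and Slc35b4 (0.948). These were picked from 11713 genes, of which 53 and 27 had r above 0.9, and all points share the same 8 arrays.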

How the data were processed

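Each deposited value is the linear intensity that MAS 5.0 gave a probe set, with 1 array per pool. The submitters' processing notes name MAS5. For its version, the scan dates and any detection calls the sources used here give nothing, so no batch could be looked for. Each array had a 2% trimmed mean of 250.0. Median signals still differed, at 77.8 to 87.3 with saline and 94.0 to 107.0 with leptin. Of the probe sets 63.3% to 66.9% were above background with saline and 68.5% to 71.0% with leptin. Over all probe sets without the filter the median log2 fold change was 0.12. The part of this in the values of dim genes was not tested. The number of unused columns was 0, and mean absolute log2 differences between arrays were 0.27 to 0.48.

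Arrays were rescaled to the mean of their trimmed means and taken to log2(signal + 8.2), the 10th percentile, so that folds of dim genes are understated; signals in the text are as deposited. Without the 64 control probe sets, the brighter 22519 probe sets, by mean log2 value, were fitted with limma 3.58.1 in R 4.3.3 (mean-variance trend, two-sided, Benjamini-Hochberg). Background was the 95th percentile of 27 bacterial control probe sets. Probe sets were named from the array annotation (34945 with 1 symbol, 932 with several, 9160 with none), with 34741 symbols updated through Entrez identifiers. Of each pathway list up to 4 called genes, and of each cell type list up to 2, were to be named, by absolute log2 fold change.

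Members, lists and tests were chosen with earlier results of these data known. The fit was tested on simulated data. Pools were made from separate mice, so the spread is between pools of 3; with 4 arrays a treatment, their number limits the precision. The planned difference of Il1rl1 and Il33 was not analysed here.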

Additional observations from a re-analysis of the deposited data

Results flagged for a closer look

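Outlying pools were looked for among 38 sets of 4 pools, the 16 probe sets and 3 differences in each treatment, with Dixon's 95% critical value for 4 samples; chance marks about 1 set in 20. The brightest probe set of Il1rn, 1451798_at, had 1 leptin pool far from the rest: leptin 6 at a signal of 222, against 337 to 365 in the other leptin pools. The dim probe set of Il1r1, 1459777_at, had leptin 7 at 11.7, against 3.00 to 3.60, all under background.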

How the results depend on the processing

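No paired analysis was possible because the pools carry numbers 1 to 4 with saline and 5 to 8 with leptin, so the treatments share no replicate number. The call of Il1rn on its brightest probe set was kept under all 19 alternatives, and that of Il1b under 17 of 18, with the actin covariate as the exception. Neither passes the stricter brightness filter, at the 75th percentile, which left 0 members called higher. The actin covariate gave 1 member higher and 1 lower, and median centring 1 lower. Without single pools the number called higher stayed at 2 to 2 and the number called lower was 0 to 1. Of all probe sets, 1561 were called (798 higher, 763 lower), 3992 with median centring (406 higher, 3586 lower), 654 with the actin covariate (249 higher, 405 lower), 507 at a threshold of 0.01, and 884 to 1431 without single pools. The shift of Il1r2 minus Il1r1 was 1.95 to 2.70 without single pools, with an exact permutation p of 0.0571, the smallest that 3 against 4 pools allow. With the actin covariate the log2 fold change of Il1b went from 1.32 to 0.95 and that of Il18 from -0.41 to -0.16, while that of Il1rn stayed at 1.57. The part of RNA quality in these values was not tested otherwise. Leaving out pools in the fit without the filter, and setting dim signals at background in the differences, were added after the data were seen. Signals near 46.0 limit Il1a, Il18bp and Il1r2.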
